A study of Mus musculus with 24 samples.

Results

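Ngp, S100a8, S100a9, Camp and Ltf, 5 granulocyte genes, differed between individual mice more than most genes did in the prefrontal cortex. They were found among the 18820 genes of the deposited array table by symbol, as rows annotated to a single gene, and each was measured by 1 probe set. They were chosen by their log2 levels in these same 24 arrays, which earlier processing had shown to vary between mice, so their spread and their correlation with each other are described here without a test. The series compared 12 mutant with 12 wild-type littermates, all male, 8 weeks old and on the C57BL6/J background. The mutants carried Df16(A)+/- (written Df(16)A+/- in the series title), a heterozygous deletion that models the human 22q11.2 microdeletion and is present in every cell. The wild types carried no deletion, and the labels name no other allele and no treatment for either group. Total RNA of dissected prefrontal cortex was labelled and hybridised to Affymetrix arrays, 1 array for each sample. The labels number the arrays as replicates without saying that each came from a separate animal, so p-values measure the spread between these samples; the arrays are called mice below.

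Neutrophils are the short-lived granulocytes of blood, and they are made in bone marrow. As a precursor matures it fills granules in successive waves: primary granules with myeloperoxidase and elastase, secondary granules with lactoferrin, the cathelicidin precursor, neutrophilic granule protein and lipocalin 2, and then gelatinase granules. Transcripts of secondary granule proteins are most abundant in marrow precursors and decline in circulating cells, whereas S100a8 and S100a9, the subunits of the cytosolic calcium-binding protein calprotectin, stay abundant in mature neutrophils. Healthy brain tissue holds few neutrophils outside its vessels. In bulk tissue, fewer cells of a type and less RNA per cell cannot be told apart.

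Ngp encodes neutrophilic granule protein, a secreted relative of the cathelicidins, Camp the cathelicidin precursor, and Ltf the iron-binding protein lactoferrin. These 3 genes lie on chromosome 9 in the order Camp, Ngp, Ltf, and S100a8 and S100a9 are neighbours on chromosome 3. C/EBP factors, among them C/EBP epsilon, drive secondary granule genes, and a C/EBP-like 8-base pattern, TTNNGNAA or its other strand TTNCNNAA, was therefore searched in the 250 bases before each start site. The sequences are shown because the members moved together across mice, and they come from RefSeq with assembly GRCm38.p6, read 5′ to 3′ in the direction of the gene, with every match in capitals. The stretches are chr9:110419558-110419807 on the plus strand for Ngp, chr9:109849457-109849706 on the minus strand for Camp and chr9:111019042-111019291 on the plus strand for Ltf. For the calprotectin genes they are chr3:90668821-90669070 on the plus strand for S100a8 and chr3:90695722-90695971 on the minus strand for S100a9. Lcn2, the gene outside the members with the closest pattern (described further on), is added with chr2:32387740-32387989 on the minus strand.
Ngp: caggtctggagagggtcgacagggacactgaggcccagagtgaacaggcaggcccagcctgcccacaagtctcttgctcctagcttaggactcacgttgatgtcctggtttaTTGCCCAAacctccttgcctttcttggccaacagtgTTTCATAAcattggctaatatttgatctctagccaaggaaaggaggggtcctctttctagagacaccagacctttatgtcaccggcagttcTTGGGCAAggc
Camp: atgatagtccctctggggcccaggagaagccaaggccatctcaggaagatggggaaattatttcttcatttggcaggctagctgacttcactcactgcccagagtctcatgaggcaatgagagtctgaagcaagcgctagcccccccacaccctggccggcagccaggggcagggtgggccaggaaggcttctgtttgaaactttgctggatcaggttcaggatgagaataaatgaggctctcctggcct
Ltf: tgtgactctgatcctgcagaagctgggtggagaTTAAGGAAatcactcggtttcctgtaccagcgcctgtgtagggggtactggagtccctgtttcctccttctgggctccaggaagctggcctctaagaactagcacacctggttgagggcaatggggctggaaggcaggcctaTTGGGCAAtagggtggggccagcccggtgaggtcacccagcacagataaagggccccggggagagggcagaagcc
S100a8: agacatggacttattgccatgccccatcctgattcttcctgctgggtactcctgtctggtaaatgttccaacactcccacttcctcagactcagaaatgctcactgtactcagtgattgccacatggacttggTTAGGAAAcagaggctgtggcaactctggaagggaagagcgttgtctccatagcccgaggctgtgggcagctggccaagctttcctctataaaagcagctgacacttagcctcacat
S100a9: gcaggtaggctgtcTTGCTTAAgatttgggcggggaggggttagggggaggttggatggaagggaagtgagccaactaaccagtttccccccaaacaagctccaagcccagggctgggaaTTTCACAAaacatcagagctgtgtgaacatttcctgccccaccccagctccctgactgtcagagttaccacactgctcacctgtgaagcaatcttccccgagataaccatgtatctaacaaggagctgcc
Lcn2: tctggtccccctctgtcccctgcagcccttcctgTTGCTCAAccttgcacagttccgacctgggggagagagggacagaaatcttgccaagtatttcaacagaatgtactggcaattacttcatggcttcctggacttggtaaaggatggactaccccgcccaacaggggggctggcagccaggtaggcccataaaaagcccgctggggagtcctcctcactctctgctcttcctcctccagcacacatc
The pattern was present at 3 positions before Ngp, 2 before Ltf, 2 before S100a9, 1 before S100a8 and 1 before Lcn2, with none before Camp. A position that matched both strands was counted once, and no other pattern was searched. Among 32851 RefSeq windows of the same 250 bases, 36.8% held a match, so such a match is common, and it is a description of the letters and not of a binding site.

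The deposited log2 levels ran from 1.82 to 14.49, and the medians of the 24 arrays over genes lay between 7.50 and 7.64. Any pair of arrays correlated between 0.994 and 0.997 across genes. Neuronal genes had a median log2 level of 12.7 over the 9 of 10 listed ones that were measured, and the cortical genes Cux2 and Tbr1 were measured with a median of 10.5. The genotype labels were checked with Slc25a1, a gene of the deleted interval, which was lower in mutants by a log2 difference of -0.88 (SE 0.03, limma adjusted p 3.42e-17). A list of 20 genes of that interval was drawn up with earlier results of these data known. All 19 of them that were measured passed the genotype test, beside 0.76% of all genes, with a median log2 difference of -0.68.

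Ngp varied most between mice. Its log2 level ran from 5.33 through a median of 5.90 to 7.49 in the 12 mutants, and from 5.90 through 6.60 to 10.64 in the 12 wild types. The genotypes overlapped between 5.90 and 7.49, the 6 lowest values were all from mutants and the 3 highest all from wild types. The mean log2 level was 6.04 ± 0.67 in mutants and 7.24 ± 1.44 in wild types (SD, n = 12 each). From the lowest to the highest mouse the range was 39.7-fold, which compares mice and not groups.

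The calprotectin genes had the same shape with a smaller range. S100a8 ran from 4.91 through a median of 5.40 to 5.98 in mutants and from 5.33 through 5.59 to 8.94 in wild types, all as log2 levels. S100a9 ran from 5.21 through 5.49 to 5.96 in mutants and from 5.33 through 5.77 to 7.86 in wild types. In each gene the bulk of the wild types lay within the range of the mutants, and a few lay above it. The mean log2 levels were 5.43 ± 0.39 in mutants and 6.10 ± 1.11 in wild types for S100a8, and 5.53 ± 0.22 and 5.99 ± 0.74 for S100a9 (SD, n = 12 each).

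Camp and Ltf both encode contents of secondary granules, and their log2 levels spanned 0.50 and 0.64 across the mutants. Camp ran from 5.18 through a median of 5.47 to 5.69 in mutants and from 5.19 through 5.51 to 7.34 in wild types (log2 levels). Ltf ran from 5.43 through 5.70 to 6.08 in mutants and from 5.47 through 5.80 to 8.25 in wild types. The medians of the genotypes were close, and the wild types again held the high values. Means were 5.46 ± 0.14 in mutants and 5.71 ± 0.59 in wild types for Camp, and 5.75 ± 0.25 and 6.10 ± 0.82 for Ltf (log2, SD, n = 12 each).

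**Figure D1:**
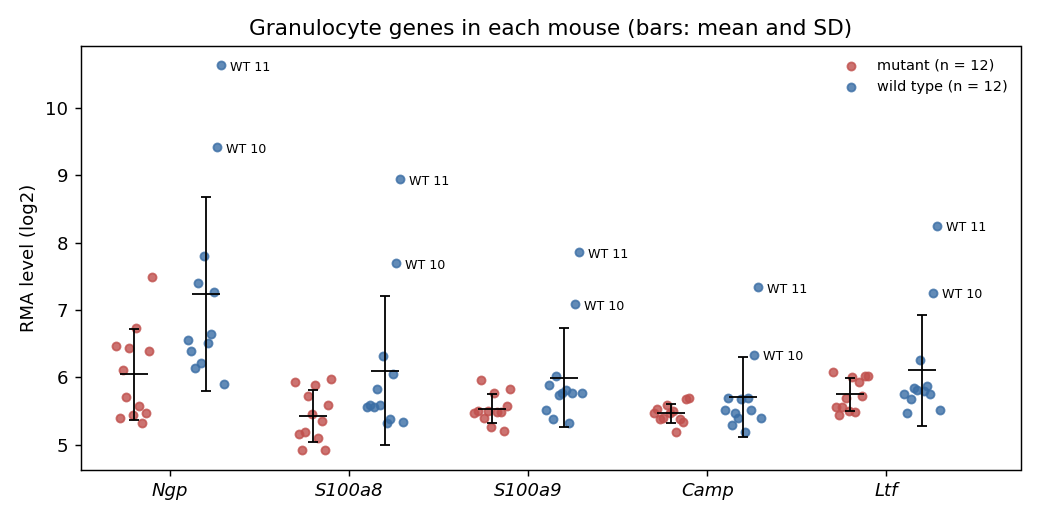
Log2 level (vertical axis) of the 5 granulocyte genes (horizontal axis), 1 point for each mouse, 12 mutants in red and 12 wild types in blue, with horizontal bars at the mean and whiskers of 1 SD. Wild-type replicates 11 and 10 are the highest and second highest mice for each gene, with Ngp at 10.64 and 9.42 against at most 7.80 in the other 22 mice.

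Wild-type replicates 10 and 11 stood apart from the other 22 mice in all 5 genes, with replicate 11 highest and replicate 10 next each time. Replicate 10 had log2 levels of 9.42 for Ngp, 7.69 for S100a8, 7.08 for S100a9, 6.33 for Camp and 7.25 for Ltf. Replicate 11 had 10.64, 8.94, 7.86, 7.34 and 8.25 in the same order. The highest value in the other 22 mice was 7.80 for Ngp, 6.31 for S100a8, 6.01 for S100a9, 5.70 for Camp and 6.26 for Ltf, so no other mouse reached them in any of these genes.

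The excess was largest for Ngp and smallest for Camp. Against the median of the other 22 mice, replicate 11 was 19-fold higher for Ngp, 10.4-fold for S100a8, 5.67-fold for Ltf, 4.97-fold for S100a9 and 3.66-fold for Camp. Replicate 10 was 8.16-fold higher for Ngp, 4.40-fold for S100a8, 2.90-fold for S100a9, 2.83-fold for Ltf and 1.82-fold for Camp. These are folds of array signal, in which background is part of each level, so those of dim probe sets are compressed and the genes' folds cannot be ranked as folds of transcript. Replicate 11 exceeded replicate 10 by a log2 difference of 1.22 for Ngp, 1.25 for S100a8, 0.78 for S100a9 and 1.0 each for Camp and Ltf.

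Among the other 22 mice the order was less uniform. Wild-type replicate 6 came next for Ngp, S100a8 and Ltf, wild-type replicate 4 for S100a9 and wild-type replicate 8 for Camp. The lowest mouse was mutant replicate 9 for Ngp, mutant replicate 3 for S100a8 and Ltf, mutant replicate 10 for S100a9 and mutant replicate 8 for Camp. The lowest mouse was thus a mutant for each gene, but it was not the same mutant.

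All 5 genes were near the top of the table by their spread, which is why they were picked. Over 24 mice the SD of the log2 level was 1.26 for Ngp, the highest of 18820 genes, and 0.88 for S100a8, at rank 3. Ltf followed with 0.62 at rank 14, S100a9 with 0.58 at rank 18 and Camp with 0.44 at rank 44, against a median SD of 0.12 over all genes. Rank 2 was taken by Lcn2, which encodes the siderophore-binding lipocalin 2 of secondary granules, with an SD of 1.09.

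Without wild-type replicates 10 and 11 the genes parted. Ngp kept an SD of 0.71 over 22 mice, at rank 6, and S100a8 an SD of 0.37 at rank 96. S100a9 and Ltf had an SD of 0.23 each, at ranks 1168 and 1200, and Camp one of 0.15 at rank 5745, beside a median of 0.12 over all genes. Ngp and S100a8 were therefore widely spread also among those 22 mice, whereas the rank of Camp rested on replicates 10 and 11. Within the mutants alone the SD of Ngp ranked 11 and that of S100a8 ranked 72, while those of S100a9, Camp and Ltf ranked 1621, 6502 and 911.

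Levels of the members went together across mice, which is again a description of genes chosen with their values known. Because replicates 10 and 11 form a separate group at the top, correlations are given over the other 22 mice. Over these, Pearson's r in the 10 pairs of genes ran from 0.11 to 0.82 with a median of 0.53, and Spearman's rho from 0.05 to 0.77. All pairs share the same arrays, and so any error of an array is common to both genes of a pair.

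The closest pair was Ngp and S100a8 (r = 0.82, rho = 0.77), followed by S100a8 and Ltf (r = 0.70, rho = 0.64) and Ngp and Ltf (r = 0.62, rho = 0.58). S100a9 went with Ngp (r = 0.59, rho = 0.52) but little with Camp (r = 0.14) or Ltf (r = 0.11). Its partner in calprotectin, S100a8, had r = 0.36 with it. Over these 22 mice S100a9, Camp and Ltf were dim, with mean levels at percentiles 27, 25 and 29 of all genes. The part of dim levels and small spread in the low r values was not tested. In the 12 mutants alone r ran from 0.19 to 0.77 over the 10 pairs, and in the 10 remaining wild types from -0.05 to 0.86.

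The descriptions number the arrays from 1 to 24, and the numbers alternate irregularly between genotypes. Wild-type replicates 10 and 11 were arrays 21 and 22, next to each other. Their neighbours were mutant replicate 11 on array 20, with a log2 Ngp level of 6.39, and mutant replicate 12 on array 23, with 7.49, the highest mutant. Wild-type replicate 12 on array 24 had 5.90, the lowest wild type. Whether neighbouring numbers shared a dissection or an extraction is not given in the sources used here, and a part of the array order in these levels was not tested.

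Ngp averaged 6.54 ± 0.51 in the 5 wild types and 6.04 ± 0.53 in the 7 mutants of arrays 1 to 12. In arrays 13 to 24 it averaged 7.74 ± 1.71 in 7 wild types and 6.05 ± 0.90 in 5 mutants. Leaving out replicates 10 and 11 brought the wild types of the later arrays to 6.82 ± 0.73 (n = 5, all log2 levels with SD).

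**Figure D2:**
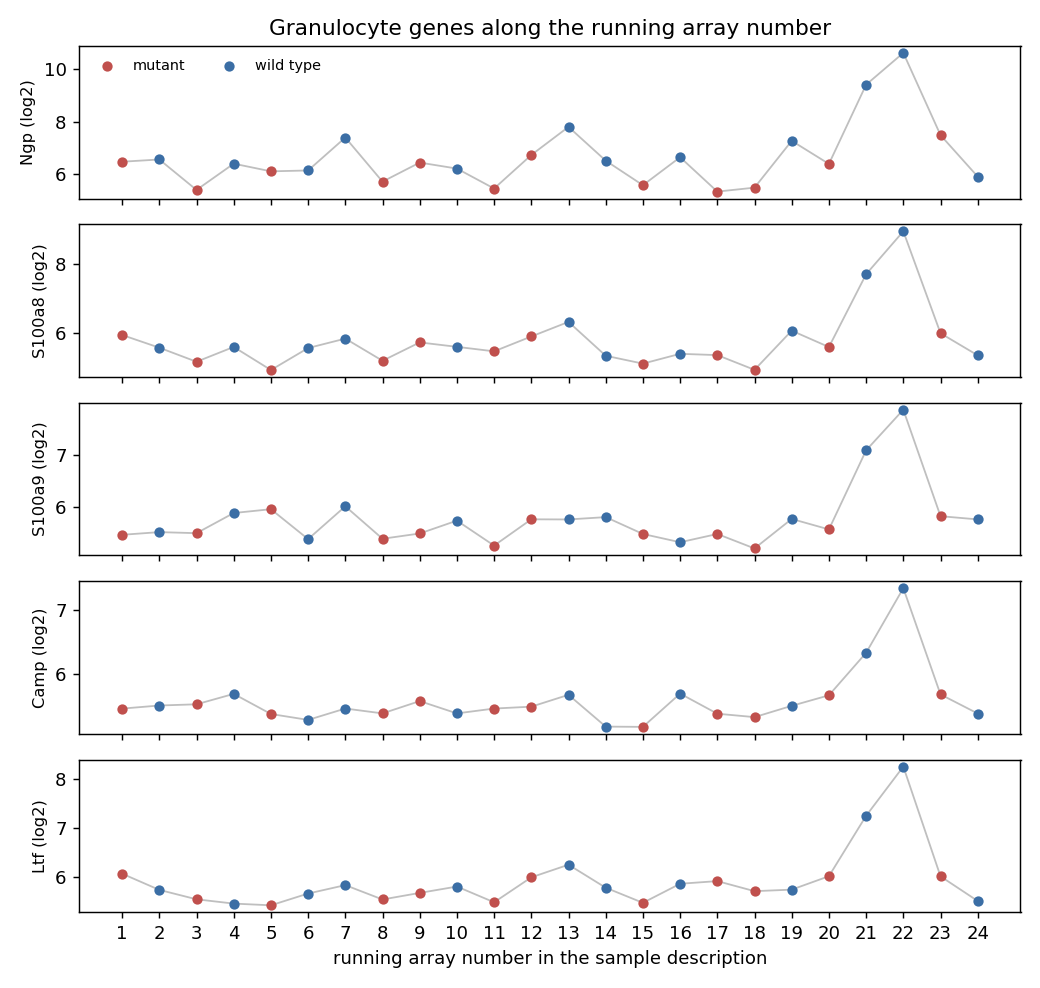
Log2 level (vertical axes, 1 panel for each gene) along the running array number of the sample description (horizontal axis), with mutants in red and wild types in blue; grey lines only join consecutive numbers. Arrays 21 and 22, wild-type replicates 10 and 11, stand above the rest in all 5 panels.

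The comparison the study was built for, mutant against wild type, gave negative differences for all 5 genes, and none passed the test. The log2 difference, mutant minus wild type, was -1.20 (SE 0.43) for Ngp, -0.67 (SE 0.32) for S100a8, -0.46 (SE 0.21) for S100a9, -0.36 (SE 0.23) for Ltf and -0.24 (SE 0.16) for Camp. The limma adjusted p was 0.257, 0.407, 0.386, 0.576 and 0.589 in that order. Of the 18820 genes tested, 0.76% passed at an adjusted p under 0.05, 0.531% higher and 0.228% lower in mutants. With 0 of 5 members called the count lies at what that background would give, and 5 genes are too few to fall below it. Unadjusted, the p-values were 0.0101 for Ngp, 0.0371 for S100a9, 0.0463 for S100a8, 0.138 for Ltf and 0.153 for Camp, and 2245 of all genes had one under 0.05.

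Replicates 10 and 11 carried much of these differences. They were left out after their values were seen, as the highest mice for every member, and both are wild types. Leaving them out therefore lowers the wild-type mean and makes each difference less negative by the choice itself. The values below describe the remaining mice and are not a separate test of genotype. Without replicates 10 and 11 the log2 difference was -0.64 (SE 0.26, limma adjusted p 0.305) for Ngp, -0.22 (SE 0.14, adjusted p 0.546) for S100a8 and -0.16 (SE 0.09, adjusted p 0.461) for S100a9. Camp and Ltf were left with -0.02 (SE 0.06, adjusted p 0.937) and -0.03 (SE 0.09, adjusted p 0.936). In that setting 0.776% of all genes passed.

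**Figure D3:**
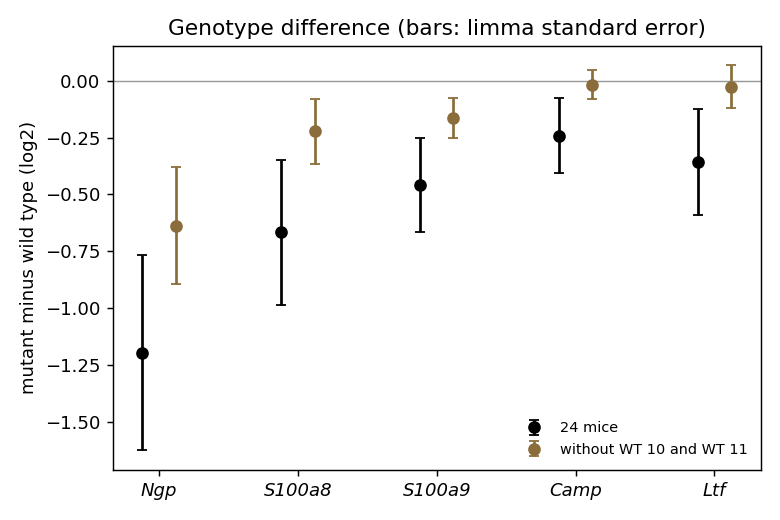
Log2 difference, mutant minus wild type (vertical axis), of the 5 granulocyte genes (horizontal axis), with bars of 1 limma standard error, for all 24 mice in black and without wild-type replicates 10 and 11 in brown. The difference of Ngp moves from -1.20 to -0.64 and those of Camp and Ltf lie at -0.02 and -0.03 without these mice.

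Which other genes followed the granulocyte level between mice of the same genotype was asked with a limma fit of genotype and the log2 level of Ngp, with members left out of the count. The slope is the log2 change of a gene per log2 unit of Ngp. Of 18815 genes 33 passed, 0.175%, of which 32 rose with Ngp (0.17%) and Herc6 alone fell (0.00531%). At an unadjusted p under 0.05 there were 1646, and the median slope of all genes was -0.006. Without replicates 10 and 11 only Lcn2 passed, 0.00531% of the genes tested. The count thus rested on those mice. Without replicate 11 alone 7 genes passed, all among the 33 (Lcn2, Slc4a1, Retnlg, Mmp8, Mki67, Ctse and Cd24a), and without replicate 10 alone 36 passed, of which 23 were among them.

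Lcn2 followed Ngp with and without these mice. Its log2 level was 9.61 in replicate 10 and 10.71 in replicate 11, and ran from 5.88 through a median of 6.60 to 7.76 in the other 22 mice, which it did not overlap. Its slope was 0.89 (SE 0.05, adjusted p 5.78e-12) over 24 mice and 0.69 (SE 0.07, adjusted p 3.3e-05) over 22. With ranks of Ngp, and in mutants alone, 0 slopes passed, and so that of Lcn2 did not. The slopes of the members themselves, given without a test, were 0.70 for S100a8, 0.49 for Ltf, 0.43 for S100a9 and 0.33 for Camp over 24 mice, and 0.45, 0.24, 0.17 and 0.13 over 22.

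Other genes of neutrophil granules rose with Ngp in part. Of 5 primary granule genes 2 rose, Mpo (myeloperoxidase; slope 0.28, SE 0.04, adjusted p 0.000706) and Elane (neutrophil elastase; slope 0.21, SE 0.03, adjusted p 0.0011), and 3 did not pass; the median slope was 0.13. Mpo had log2 levels of 6.45 and 7.14 in replicates 10 and 11 against at most 6.01 in the other mice. Of 9 measured genes of the list of other secondary granule and stefin genes 4 rose: Lcn2, the collagenase Mmp8 (slope 0.48), the chitinase-like Chil3 (0.37) and the surface glycoprotein Cd177 (0.13). The median slope of that list was 0.09, and Cebpe, the factor named above and picked out after its value was seen, had a slope of 0.09 and did not pass (adjusted p 0.379). The lists were drawn up with earlier results of these data known, so the counts describe them.

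Of 13 measured genes of mature neutrophils 2 passed, beside 0.175% of all genes. The median log2 level of the list was 5.07, and RMA compresses differences of dim probe sets. Retnlg, a resistin-like secreted protein, rose with a slope of 0.51 (SE 0.05, adjusted p 5.2e-06) and Mmp9, the gelatinase of late granules, with one of 0.31 (SE 0.05, adjusted p 0.00222). The other 11 did not pass, among them the receptors Cxcr2 (slope 0.14, adjusted p 0.191) and Csf3r (slope 0.08, adjusted p 0.0934), and the median was 0.03. Retnlg reached 6.60 and 8.05 in replicates 10 and 11 against a highest value of 5.73 in the other 22 mice. Over those 22 mice the slope of Mmp9 was 0.01 and that of Retnlg 0.28, neither called.

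Some markers of other blood and marrow cells were high in the same mice, and their part in the slopes was not tested. Among genes other than members, 0.723% were above all of the other 22 mice in both replicates 10 and 11, and 3.61% in replicate 11 with or without replicate 10. In both replicates this held for 3 of 9 erythroid genes (Slc4a1, Car1 and Rhag), 1 of 7 platelet genes (Ppbp), 2 of 5 monocyte genes, 2 of 10 B lineage genes (Cd79b and Ms4a1) and 0 of 9 T and NK genes. The erythroid Klf1, Alas2 and Tspo2 and the platelet Gp5 and Treml1 were among those that were not above the other mice in both; Klf1, Alas2, Tspo2 and Gp5 were picked out after their values were seen. Of 9 measured erythroid genes 2 rose, the anion exchanger Slc4a1 (slope 0.46, SE 0.04, adjusted p 8.64e-08) and the carbonic anhydrase Car1 (slope 0.48, SE 0.07, adjusted p 0.0011), and the other 7 did not pass; the list median was 0.13. Slc4a1 had log2 levels of 7.39 and 8.14 in replicates 10 and 11 and ran from 5.50 through 6.0 to 6.50 in the others. Car1 had 7.02 and 7.75 against 4.51, 5.08 and 5.95. Over the other 22 mice the slope of Slc4a1 was 0.31 (SE 0.06, limma adjusted p 0.359) and that of Car1 0.08, neither called. Of 7 platelet genes only the chemokine precursor Ppbp rose (slope 0.58, SE 0.08, adjusted p 0.000101), at 8.37 and 9.63 in replicates 10 and 11 against at most 7.39 in the others, and the list median was 0.05.

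Globin, the main product of circulating red cells, did not set replicate 10 apart. The 4 probe sets annotated to several adult globin genes each, and so not assigned to one, had replicate 11 highest and replicate 10 at rank 4. In the brighter adult alpha globin probe set the log2 levels were 13.27 in replicate 10 and 13.53 in replicate 11, and the other 22 mice ran from 12.42 through 12.80 to 13.41. In the brighter adult beta globin probe set they were 12.70 and 13.05 against 11.77, 12.41 and 12.93. Replicate 10 thus lay within the range of the other mice, unlike in Slc4a1 and Car1. The globin probe sets were near the top of the log2 levels, which ended at 14.49, and Slc4a1 and Car1 were far dimmer. Whether brightness limited the globin differences was not tested. Over the 22 mice Pearson's r with Ngp was 0.14 for the alpha and 0.39 for the beta probe set. The alpha probe set averaged 12.91 ± 0.29 in mutants and 12.88 ± 0.34 in wild types; for beta these means were 12.39 ± 0.35 and 12.43 ± 0.29 (SD, n = 12 each).

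**Figure D4:**
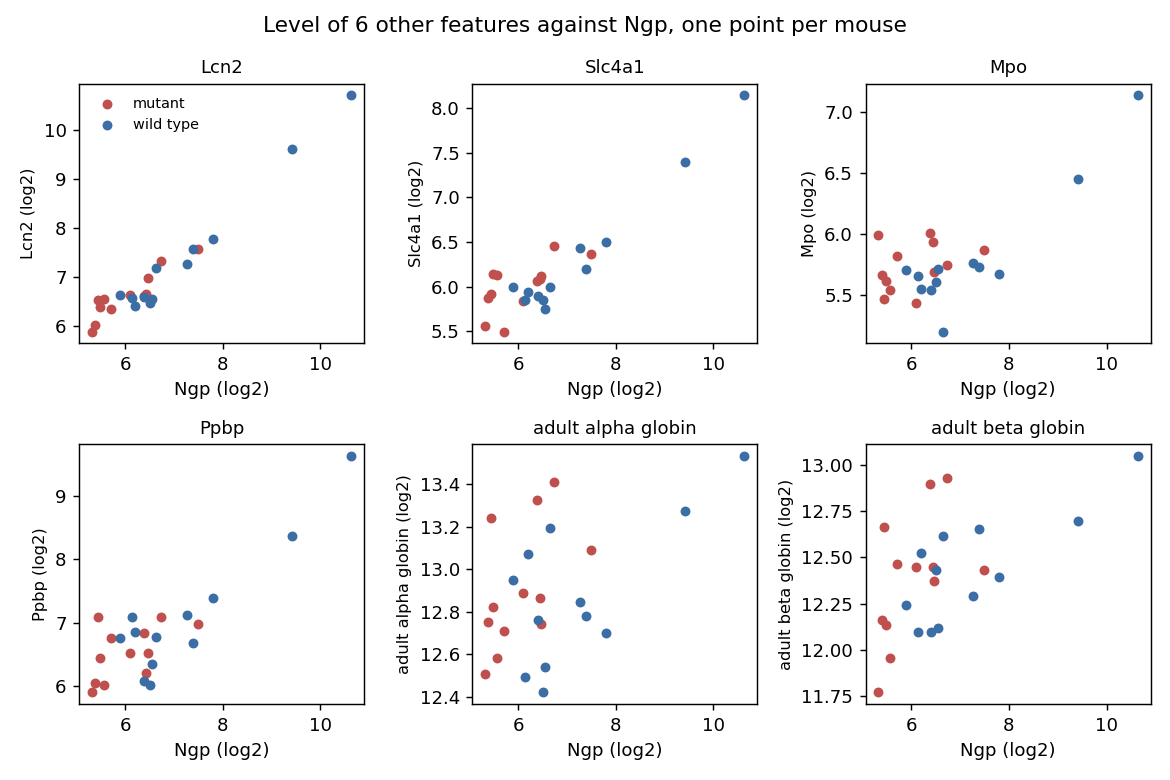
Log2 level of 4 genes and of the brighter adult alpha and beta globin probe sets (vertical axes) against the log2 level of Ngp (horizontal axes), 1 point for each mouse, mutants red and wild types blue. Lcn2 follows Ngp less closely in the lower part of the range, with 6.53 in mutant replicate 6 (Ngp 5.44) and 6.55 in wild-type replicate 1 (Ngp 6.55). Like Slc4a1, Mpo and Ppbp, it is highest in the 2 wild types at the right. The globin levels of those mice lie near or within the upper range of the others. Over the other 22 mice, after subtracting genotype means, Pearson's r with Ngp was 0.90 for Lcn2, 0.73 for Slc4a1, 0.48 for Ppbp and 0.29 for Mpo.

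Of 5 measured monocyte genes 2 rose, Ifitm6 (slope 0.23, adjusted p 0.000375) and the lysozyme gene Lyz2 (slope 0.27, adjusted p 0.0194), which other macrophages also express, and the list median was 0.09. Of 8 measured cell cycle genes 2 rose, Mki67, the proliferation antigen (slope 0.25, SE 0.03, adjusted p 1.14e-05), and the topoisomerase Top2a (slope 0.18, SE 0.03, adjusted p 0.00232). The call of Top2a was lost when all its probe sets were averaged (slope 0.0653, adjusted p 0.268). All 8 slopes of that list were above 0, with a median of 0.05. Mki67 was at 5.95 and 6.53 in replicates 10 and 11 against 5.0 to 5.61 in the other mice. Lymphocyte lists had no call, with 0 of 10 B lineage genes (largest slope 0.17 for Cd79b, adjusted p 0.0934) and 0 of 9 T and NK genes (median 0.02). With 0.175% of all genes called, lists of this size would seldom hold one.

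Outside the lists, an immunoglobulin gene and eosinophil genes were also among the calls, and the genes of this paragraph other than Herc6 were chosen after their values were seen. Igkv6-23, a kappa light chain variable segment of B lineage cells, had a slope of 0.19 (SE 0.03, adjusted p 0.00572), at 4.47 and 5.58 in replicates 10 and 11 against at most 4.47 in the others. Prg2, the major basic protein of eosinophils, had a slope of 0.24 (adjusted p 0.00492) and Ear6, an eosinophil-associated ribonuclease whose near-identical family members can share probe signal, one of 0.27 (adjusted p 0.0011). Prg2 was at 5.60 and 6.46 in replicates 10 and 11 against at most 5.34 in the other mice. Cybb, the oxidase subunit of phagocytes, had a slope of 0.28 (adjusted p 0.0201), Hp, which encodes haptoglobin, one of 0.17 (adjusted p 0.0469) and Myb, a factor of blood progenitors, one of 0.14 (adjusted p 0.0339). Herc6, an interferon-inducible ligase, was the gene that fell, with a slope of -0.09 (SE 0.02, adjusted p 0.0124). Its log2 level was 9.13 and 9.05 in replicates 10 and 11, below the lowest of the other mice at 9.19. Over the other 22 mice none of these slopes was called. They were 0.08 for Igkv6-23, 0.05 for Prg2, 0.08 for Ear6, 0.04 for Cybb, -0.009 for Hp, 0.11 for Myb and -0.08 for Herc6. These genes are a part of the 16 calls, of 33, that were in no list and not among the 10 genes most like the members. The rest of the 16 were Plbd1, Clec12a, H1f5, Mansc4, Acap1, Rgs18, Slc43a3, Nxpe2 and Lgr5.

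Lists of brain and brain-border cells held no call. With 0.175% of all genes called, each count of 0 lies at what a list this short would give. The counts were 0 of 11 microglia genes (median slope -0.004), 0 of 6 border macrophage genes (0.04), 0 of 10 endothelial genes (0.01), 0 of 9 choroid plexus genes (-0.05), 0 of 7 astrocyte genes, 0 of 6 oligodendrocyte genes and 0 of 9 neuron genes. Trem2, a receptor of microglia, had a slope of -0.04 (adjusted p 0.489). All 12 pericyte, fibroblast and meninges genes had slopes above 0, none called, with a median of 0.03 and the largest for the collagen Col1a1 (0.18, SE 0.05, adjusted p 0.178). Of 9 bone and osteoclast genes none passed, the largest slope being that of Acp5, the acid phosphatase of osteoclasts (0.19, adjusted p 0.128). Replicate 11, but not replicate 10, was above all of the other 22 mice in 4 of the 9 bone and osteoclast genes and in 2 of the 12 pericyte, fibroblast and meninges genes. These were Acp5 (7.01 against at most 5.90), the bone sialoprotein gene Ibsp (6.18 against 5.35), the protease gene Ctsk (7.56 against 7.23), the osteoblast factor Sp7 (6.0 against 5.90), Col1a1 (8.57 against 7.71) and Col1a2 (8.26 against 7.80). Replicate 11, without replicate 10, was also above the other 22 mice in 2 of 9 choroid plexus, 3 of 14 S100 family and 1 of 9 neuron genes. Among all genes other than members, 3.61% were above in replicate 11, with or without replicate 10. The part of these genes in the granulocyte levels of replicate 11 was not tested.

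The partners of the member proteins did not pass either, in lists too short to fall below the 0.175% of all genes called. Among 14 measured S100 family genes other than the members 0 were called, with a median slope of 0.001. Receptors that calprotectin, cathelicidin or lactoferrin can bind had slopes of 0.01 for Tlr4, -0.001 for Ager and 0.03 for Lrp1, 0 of 4 called. Of 11 neutrophil chemokines, receptors and cytokines 0 were called, with a median of -0.002; Cxcr4, which retains cells in marrow, had a slope of 0.16 (adjusted p 0.125) and the chemokine Ccl2 one of -0.07 (adjusted p 0.488). Of 6 endothelial activation genes none passed, with Lrg1 at 0.10 (adjusted p 0.379). Iron genes, 7 in number, and 8 glucocorticoid response genes also gave 0 calls, with Tfrc, the transferrin receptor, at -0.06 (adjusted p 0.178) and Fkbp5 at 0.11 (adjusted p 0.472). In Cxcr4 and Fkbp5 both replicates 10 and 11 were above all of the other 22 mice, as in 0.723% of all genes other than members.

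**Figure D5:**
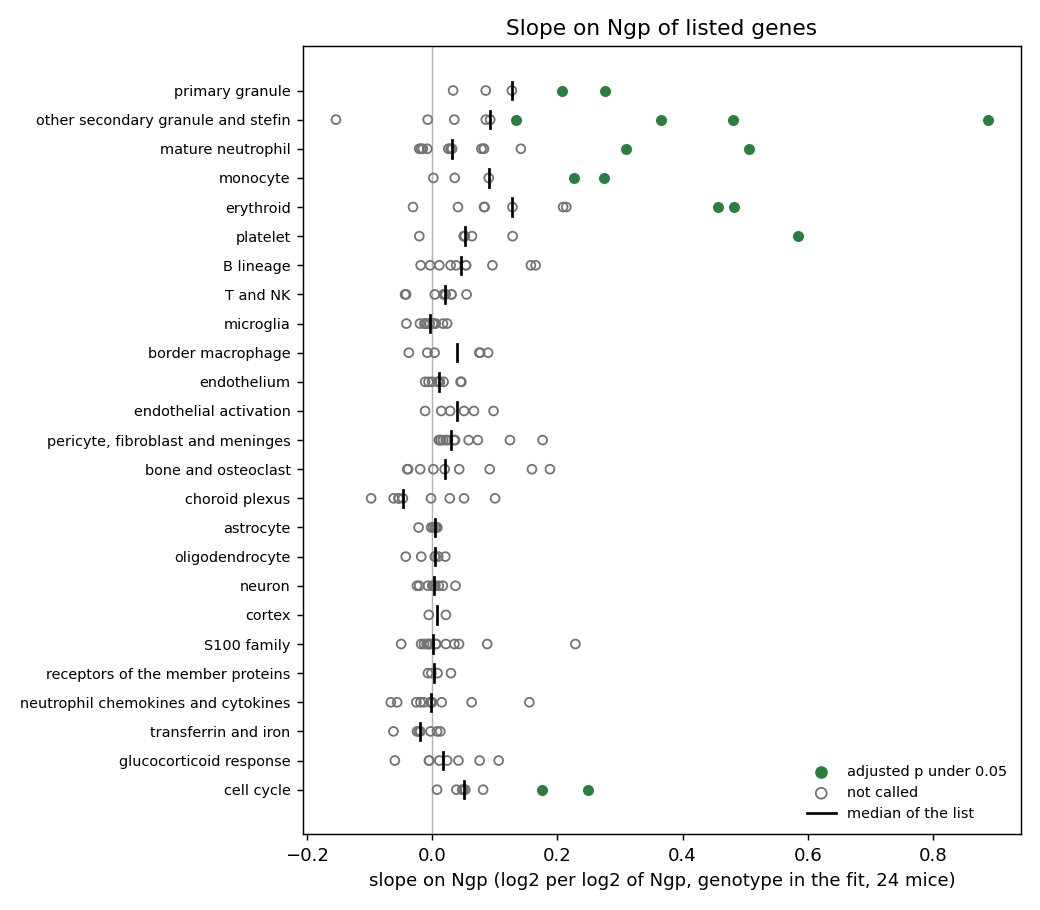
Slope on the log2 level of Ngp (horizontal axis, log2 per log2, 24 mice, genotype in the fit) of each measured gene in 25 lists (vertical axis), with called genes as filled green points, the others as open circles and a black bar at the list median. Filled points occur in 7 lists, those of granule, mature neutrophil, monocyte, erythroid, platelet and cell cycle genes, and the largest is Lcn2 at 0.89.

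The genes whose pattern was most like that of the members were sought by the mean Pearson correlation with the 5 members over 24 mice, after subtracting genotype means. The 10 closest were Mmp8 (0.93), Lcn2 (0.92), Slc4a1 (0.90), Ctse (0.90), Retnlg (0.89), Mki67 (0.86), Mpo (0.86), Ifitm6 (0.86), Mmp9 (0.86) and Cd24a (0.86). These values rest on replicates 10 and 11. Over the other 22 mice they were 0.51 for Mmp8, 0.61 for Lcn2, 0.51 for Slc4a1, 0.23 for Ctse, 0.42 for Retnlg, 0.41 for Mki67, 0.30 for Mpo, 0.28 for Ifitm6, 0.12 for Mmp9 and 0.33 for Cd24a. Only Lcn2 was among the 10 closest genes in both sets of mice, at rank 2 over 24 and rank 1 over 22. Ctse, a cathepsin found in red cells among others, was at 6.89 and 7.53 in replicates 10 and 11 against 5.23 to 5.83 in the other mice, and Cd24a, a surface antigen of immature blood cells that neurons also express, at 8.47 and 9.04 against 7.20 to 7.99.

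The 5 least alike were Herc6 (-0.73), Prkar1a (-0.71), Kbtbd7 (-0.69), Cldnd1 (-0.69) and Crbn (-0.69). Apart from Herc6 none had a called slope, and their slopes were small, at -0.03 for Prkar1a and -0.04 each for Kbtbd7, Cldnd1 and Crbn. Over 22 mice the mean correlations were -0.36, -0.44, -0.27, -0.51 and -0.48 in the same order.

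No measured gene next to the members on the chromosome had a called slope. With 0.175% of all genes called, that is what so few genes would give. Between Camp and Ltf, a stretch that includes Ngp, 27 other genes were measured and 0 had a called slope, with slopes from -0.05 to 0.05. Around S100a8 and S100a9, 16 neighbours gave 0 calls and slopes from -0.07 to 0.23, the largest belonging to S100a5 (SE 0.08, adjusted p 0.416).

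Fitting the Ngp level beside genotype moved the list of genotype calls without changing its size much. With the Ngp term 148 of 18819 genes passed, 0.786%, against 143 without it on the same mice, and 105 genes passed in both fits. None of the 33 genes with a called slope on Ngp was a genotype call. With 0.76% of all genes called for genotype, 0 of 33 lies at what that background would give. With the term the difference of Slc25a1 remained at -0.87 (SE 0.04). The differences of the members with the Ngp term, mutant minus wild type, were 0.17 (SE 0.12) for S100a8, 0.05 (SE 0.12) for S100a9, 0.16 (SE 0.09) for Camp and 0.23 (SE 0.11) for Ltf. They are given without a test, because Ngp and these genes were chosen together with their values known.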

How the data were processed

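Expression was measured in 12 mutant and 12 wild-type prefrontal cortex samples, grouped by their titles. The deposited values are log2 levels, 1 for each of 35556 probe sets and each array. RMA made them, per the submitters' processing notes; no source used here gives its version, the array's build or the normalization steps. RMA compresses differences of dim probe sets, and the table holds no detection call. The number of arrays limits the precision.

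GEO's platform annotation supplied the names: 21218 had 1 symbol, 1881 several and 12457 none. The brightest probe set stood for each of the 1386 genes with several. Of 18820 genes 18790 matched RefSeq GRCm38.p6 by Entrez identifier, which gave chromosomes and neighbours. Genes were fitted with limma 3.58.1 (lmFit, eBayes) in R 4.3.3, with genotype alone and with genotype plus the Ngp level, and p-values were adjusted over all genes fitted (Benjamini-Hochberg, threshold 0.05). The SD is over samples and the SE is limma's. On simulated data over 18820 genes the genotype step recovered 93% of log2 changes of 0.4 and 53% of those of 0.2, and over 18819 genes the slope step recovered 93% of slopes of 0.2 and 65% of slopes of 0.1.

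The members and all 26 gene lists (258 genes, 225 measured) were chosen with earlier results of these data known. Named are the members, the 10 most and 5 least alike genes, up to 4 genes of each list by the p of the slope on Ngp, Slc25a1 for the genotype labels, and genes stated as chosen after their values were seen. Alternatives covered normalization, the fit, filters, arrays left out and other measures of the granulocyte level. Same-numbered mutants and wild types were checked for pairing. Their deviations correlated between -0.08 and 0.31 with a median of 0.10, over 0.1 in 6 of 12 numbers, against a median of -0.01 for different numbers. These correlations did not settle whether the numbers pair the mice, and the numbers were not used as pairs in the main fits.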

Additional observations from a re-analysis of the deposited data

How the results depend on the processing

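The genotype difference of the members passed under none of the alternatives run. It ranged from -1.69 to -0.50 for Ngp (adjusted p 0.161 to 0.621), and that of Camp turned to 0.00246 in arrays 1 to 12. Genotype calls numbered 143, 58 within arrays 1 to 12 and 57 within arrays 13 to 24, which hold fewer mice, and 119 to 157 with each mouse left out in turn. The 33 slopes on Ngp changed more: 71 passed with array weights, 9 among genes with a mean of at least 6 (of 12689 tested), 55 with S100a8 and 57 with the mean of the 5 members in place of Ngp, 9 in arrays 13 to 24, 1 without the 2 mice farthest from the median of Ngp (wild-type replicates 10 and 11), and 7 (without wild-type replicate 11) to 37 with each mouse left out. Slopes that passed in limma numbered 0 with ranks of Ngp, 0 in arrays 1 to 12 and 0 in mutants alone, where 1111, 872 and 711 genes had an unadjusted p under 0.05. In wild types alone 32 passed, 21 of them among the 33. In arrays 1 to 12 the slope was -0.011 for Elane and -0.0543 for Car1. The difference of S100a9 beside a granulocyte term was -0.0726 with S100a8 as that term and -0.0519 without replicates 10 and 11. With the replicate number as a block, though the numbers may not pair the mice, 147 genotype differences, 6 slopes and 109 differences beside the Ngp term passed. The cause was not tested. Leaving out wild-type replicates 10 and 11 together was chosen after seeing the data for the genotype comparisons and the member levels.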

Other observations

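Some other genes with a high SD between mice had no called slope on Ngp, and they were chosen after their values were seen. Gh, which encodes pituitary growth hormone, had an SD of 0.73 over 24 mice (rank 8) and a slope on Ngp of 0.16 (SE 0.13, limma adjusted p 0.757). Prl, which encodes prolactin, had a slope of 0.10 (SE 0.10, adjusted p 0.832). Cyp2g1, an olfactory cytochrome, had an SD of 0.73 (rank 7) and a slope of -0.10 (SE 0.13, adjusted p 0.868), and Stoml3, which olfactory sensory neurons express, a slope of 0.09 (SE 0.14, adjusted p 0.906). Without wild-type replicates 10 and 11 the slopes were 0.51 (SE 0.22) for Gh, 0.42 (SE 0.17) for Prl, -0.13 (SE 0.25) for Cyp2g1 and -0.16 (SE 0.26) for Stoml3, none called (adjusted p 0.962, 0.962, 0.982 and 0.980). In Gh and Cyp2g1 the spread lay in the mutants, with an SD of 0.98 and 1.01 there against 0.25 and 0.21 in wild types. The members had the larger SD in wild types, but without replicates 10 and 11 the SD of Ngp was 0.61 in wild types against 0.67 in mutants.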
